A study of Mus musculus with 18 samples.

Results

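The STAT genes Stat2, Stat3, Stat4, Stat5a, Stat5b and Stat6 encode transcription factors of the JAK-STAT pathway. They were chosen by name, without use of a measured value, and make up 6 of the 38887 genes listed for each library. Their mRNA was measured by RNA-Seq in bone marrow-derived macrophages (BMMs), either untreated or treated for 4 h with the bacterial cell wall product lipopolysaccharide (LPS) at 100 ng/ml. There were 3 libraries in each of 6 groups, WT, GILZ KO and GILZ TG with and without LPS, and per the methods each stood for an independent preparation. The donors were female C57BL/6J mice of 10 to 23 weeks, and their marrow cells were cultured for 6 days with 50 ng/ml M-CSF. All 3 genotypes were described as carrying the Cre recombinase in the endogenous Lyz2 gene, which acts in myeloid cells. Mice with this Cre and no further allele served as WT. GILZ KO mice in addition had loxP sites around exon 6 of Gilz (gene symbol Tsc22d3), and GILZ TG mice a Gilz-1 cDNA in the ROSA26 locus behind a stop cassette that Cre removes. GILZ is a glucocorticoid-induced protein with anti-inflammatory activity in macrophages, and the design asks how its absence or excess alters expression at rest and after LPS.

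STAT proteins wait in the cytoplasm until a cytokine binds its receptor and the receptor-bound JAK kinases phosphorylate a tyrosine of the STAT. Phosphorylated STATs pair through their SH2 domains, enter the nucleus and bind DNA at GAS elements, while Stat2 acts with Irf9 at interferon-stimulated response elements (ISRE). In macrophages LPS induces interferon beta, IL-6 and IL-10, which then signal back to the same cells through Stat2 and Stat3. Stat4 is best known from the IL-12 response of T and NK cells, Stat5a and Stat5b from growth hormone and the GM-CSF family, and Stat6 from the IL-4 response of alternatively activated macrophages.

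The genes lie on 3 chromosomes of the mouse assembly GRCm38. Stat6 (ENSMUSG00000002147, chr10:127642986-127660957, plus strand) and Stat2 (ENSMUSG00000040033, chr10:128270559-128292849, plus strand) are 609.6 kb apart. Stat5b (ENSMUSG00000020919, chr11:100780731-100850724, minus strand), Stat5a (ENSMUSG00000004043, chr11:100859351-100885169, plus strand) and Stat3 (ENSMUSG00000004040, chr11:100885098-100939540, minus strand) are neighbours. The gap between Stat5b and Stat5a is 8626 bases, and the 3′ ends of Stat5a and Stat3 overlap by 72 bases on opposite strands. The library kit was directional, but the strand setting of the counting is not given in the sources used here, so reads within these 72 bases may have been counted for either gene. Stat4 (ENSMUSG00000062939) lies alone at chr1:51987148-52107189 on the plus strand.

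Since Stat2 had the largest LPS response of the 6 genes and Stat4 none that passed the test, the promoter sequences around their ISRE motifs are shown. RefSeq windows of 300 bases (GRCm38; 250 before and 50 after a transcription start) were found for all 6 genes, 9 windows in total, and both strands were searched. The ISRE core (TTTC and TTTC with any 2 bases in between) was present in 2 of the 9 windows, 1 of Stat2 and 1 of Stat4, and in 3.44% of all 32851 RefSeq windows. The classical GAS motif TTCNNNGAA was in none of the 9 (8.30% of all windows), and neither was the kB consensus bound by NF-kB (5.80%). The GAS variant with a spacer of 4 bases in place of 3 was in the window of Stat2 alone (6.95% of all windows). In the sequences, which are 5′ to 3′ on the plus strand of GRCm38, capitals mark these matches. The Stat2 stretch is chr10:128270248-128270347, where the ISRE core begins at -222 from the start site and the GAS variant at -210. The Stat4 stretch is chr1:52008098-52008197 before the second RefSeq start of that gene, with the ISRE core on the minus strand at -97. A match to these letters is a description of the sequence, and binding of a factor was not measured.
Stat2: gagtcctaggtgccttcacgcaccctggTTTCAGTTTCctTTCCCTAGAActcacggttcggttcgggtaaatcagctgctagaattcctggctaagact
Stat4: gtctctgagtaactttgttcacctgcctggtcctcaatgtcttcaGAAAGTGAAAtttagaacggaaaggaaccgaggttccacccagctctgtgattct

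Stat5a and Stat5b arose by gene duplication, and how their reads were divided matters for the values given here. Their coding sequences (2391 and 2358 bases) share an identical run of 324 bases at coding positions 571 to 894 in both genes, of which the first 150 bases, 571 to 720, are shown because a read of 75 bases from within this run cannot be assigned to one of the genes.
Stat5a and Stat5b: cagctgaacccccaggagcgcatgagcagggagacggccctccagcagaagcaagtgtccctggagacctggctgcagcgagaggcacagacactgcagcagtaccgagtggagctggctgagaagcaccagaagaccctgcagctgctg
Stretches of 75 bases found in both genes made up 5.12% of those in the annotated transcripts of Stat5a and 6.99% of those of Stat5b, and no other pair of the 6 genes shared such a stretch. The posterior standard deviation of the deposited count was 4.51 to 7.98 reads in both genes, and 0 in the other 4.

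Before the STAT genes were compared, the libraries were checked. The total count per library was between 14583055 and 38557029, with a median of 24450362. Without treatment, the level of Tsc22d3 in TPM (a transcript abundance scaled by transcript length and library total) was 14.88 to 18.84 for WT, 1.89 to 2.81 for GILZ KO and 151.97 to 159.83 for GILZ TG. After LPS it was 4.56 to 5.81 for WT, 2.50 to 3.28 for GILZ KO and 127.22 to 140.56 for GILZ TG, so that the order of the labels held in both treatments, with WT and GILZ KO closer to each other after LPS. All 8 macrophage markers were at 1 TPM or more in every library. GILZ TG replicates 1 and 2 stood apart in both treatments. In these 4 libraries the summed TPM of 8 neutrophil-lineage markers was 174.02 to 488.38 (19.13 to 79.33 in the others), that of 7 B and plasma cell markers 81.7 to 157.8 (16.8 to 36.1 in the others) and that of 7 stromal fibroblast markers 80.2 to 115.0 (4.88 to 21.8 in the others). GILZ TG replicate 3 after LPS was, at 79.33 TPM for the neutrophil lineage and 26.04 TPM for B and plasma cells, still above all WT and GILZ KO libraries after LPS (at most 73.12 and 22.54 TPM). Untreated GILZ TG replicate 3, at 62.90 and 36.07 TPM, was likewise above all untreated WT and GILZ KO libraries (at most 56.43 and 35.49 TPM). Results with GILZ TG are therefore given with and without replicates 1 and 2 where they differ, and the part of other cells in the GILZ TG libraries was not tested. Lyz2, which lies 10.4 Mb from Stat6, was at 6766 to 15401 TPM in WT and at 17.2 to 70.3 TPM in GILZ KO and GILZ TG, although all genotypes were described with the same Lyz2 allele.

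**Figure D1:**
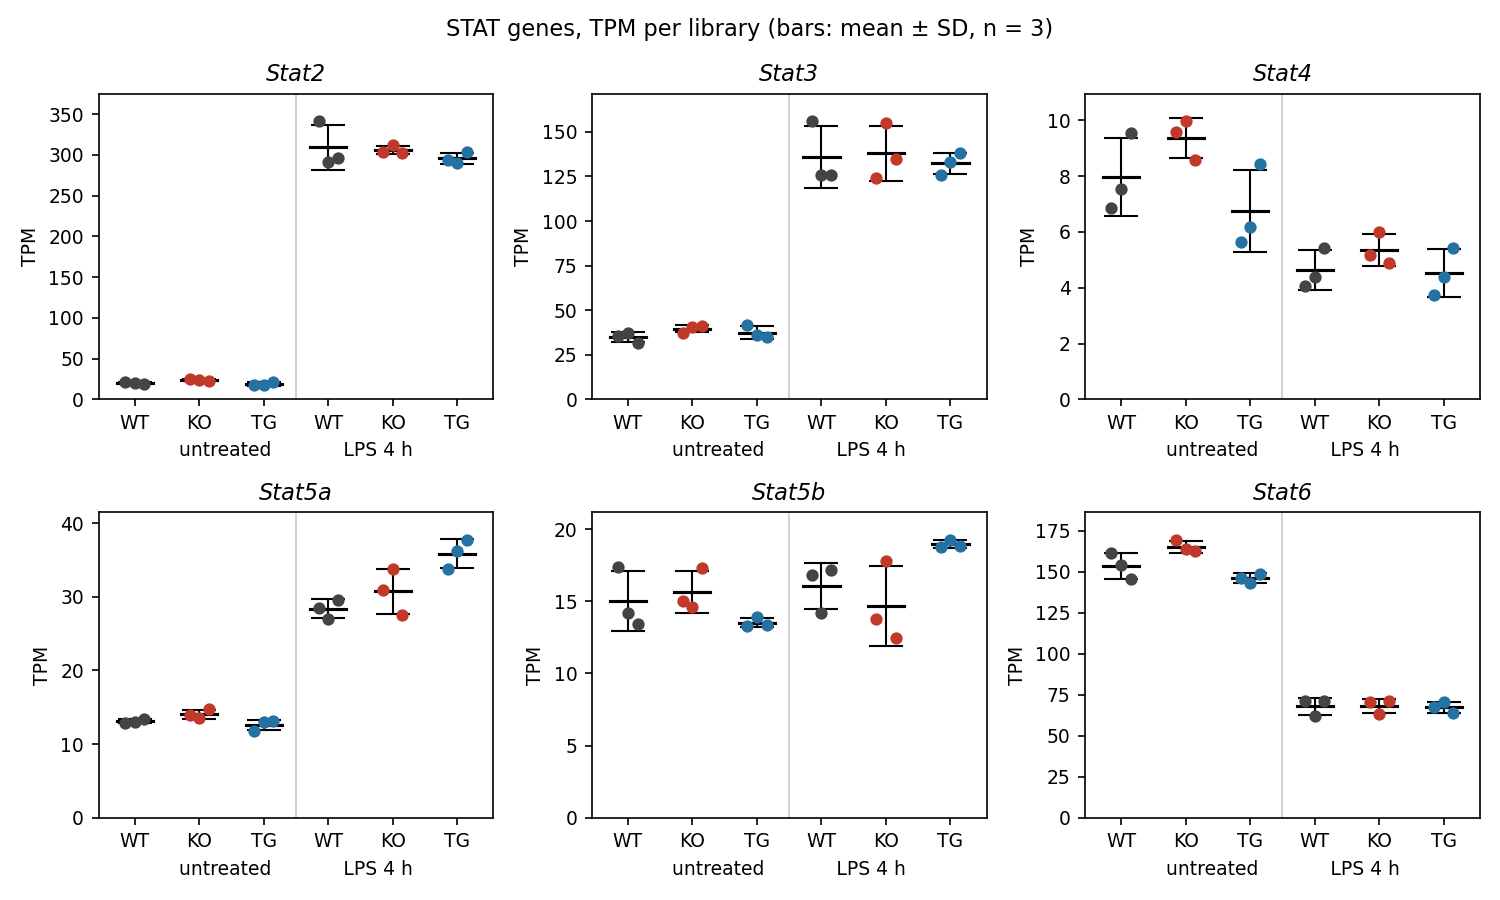
Level of each STAT gene in TPM (vertical axis, from 0, with its own scale per gene) in every library (points), with the mean and SD of the 3 libraries of a group, for WT (black), GILZ KO (red) and GILZ TG (blue). Stat2 and Stat3 stand far above their untreated level after LPS in all 9 libraries, Stat6 lies below it, and Stat5b overlaps between untreated and LPS-treated WT and GILZ KO.

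In untreated BMMs, Stat6 was the most abundant of the 6 transcripts. WT had 154 ± 7.92 TPM, GILZ KO had 165 ± 3.61 TPM and GILZ TG had 146 ± 2.84 TPM (SD over 3 libraries), at least 3.90 times the level of Stat3, the next gene in order. The order Stat6, Stat3, Stat2, Stat5b, Stat5a and Stat4 was found in all 3 genotypes. Neighbours in this order did not overlap between libraries, with the exception of Stat5b and Stat5a in GILZ KO. In WT these genes were only just apart (lowest Stat5b 13.46 TPM, highest Stat5a 13.43 TPM), and the mean of Stat5b was 1.15 times that of Stat5a. The lowest member, Stat4, was at 5.62 to 9.96 TPM in the 9 untreated libraries. Since Stat4 is abundant in T and NK cells, 12 of their markers were examined, and Cd3e, Cd3d, Cd8a and Gzma were at 0 in all 18 libraries. The summed TPM of all 12 markers was 0.37 to 1.15 without treatment and 3.13 to 7.55 after LPS. In bulk RNA, fewer cells of a type and less RNA per cell cannot be told apart.

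After LPS the order was Stat2, Stat3, Stat6, Stat5a, Stat5b and Stat4, again in all genotypes and without overlap between neighbours. The summed level of the 6 genes was 245 ± 11.9 TPM in untreated and 562 ± 48.9 TPM in LPS-treated WT. Stat6 made up 62.7 ± 0.33% of this sum before and 12.1 ± 0.81% after LPS, whereas Stat2 made up 8.27 ± 0.23% before and 55.0 ± 0.64% after. The exchange of places between an IL-4-responsive and an interferon-responsive factor was seen in every genotype, as the composition per library shows. The ratio of Stat5a to Stat5b was 0.88 ± 0.13 in untreated WT and 1.77 ± 0.11 after LPS. It was also below 1 in all 9 untreated libraries, with 0.998 as the highest value in WT, and above 1 in all 9 after LPS.

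**Figure D2:**
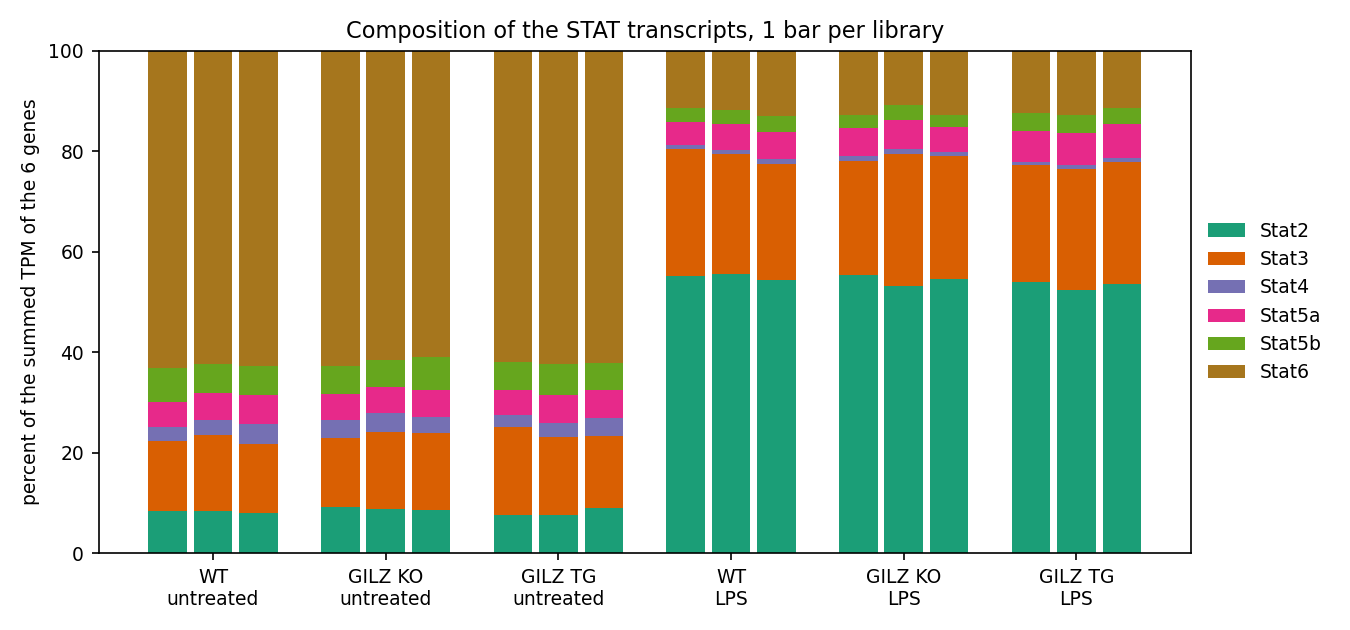
Share of each STAT gene in the summed TPM of the 6 genes (vertical axis, percent), with 1 stacked bar for each of the 18 libraries. Stat6 fills 60.9 to 63.1% of the bars without treatment, and Stat2 fills 52.4 to 55.5% of them after LPS.

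The LPS response was tested gene by gene in one edgeR fit of all 18 libraries, in which the counts were scaled by TMM (a scaling that assumes most genes do not change). Of the 6 STAT genes, 5 passed an adjusted p-value of 0.05 in WT, 4 of them higher and 1 lower after LPS, and the counts were the same in GILZ KO and in GILZ TG. This must be read against a response of most genes, as 68.6% of all 13169 genes tested passed in WT, 68.5% in GILZ KO and 68.7% in GILZ TG. Higher expression after LPS was called for 33.5%, 33.2% and 33.6% of all genes in the same order, and lower expression for 35.1%, 35.4% and 35.1%. The median log2 fold change of the 6 genes was 1.20 in WT, against a median of -0.02 over all genes. With the library total in place of TMM, the median over all genes was -0.70, -0.66 and -0.69 in WT, GILZ KO and GILZ TG, and on the log2(TPM + 1) scale it was -0.51, -0.52 and -0.51. On the library total, 15.9%, 15.5% and 15.5% of all genes were called higher and 68.3%, 67.2% and 68.3% lower. Small changes of single genes therefore depend on the scaling, as was the case for Stat4 and Stat5b. With GILZ TG replicate 3 as the sole library of each treatment, again 5 genes passed in GILZ TG, where the spread comes from the other groups. In TPM, treated and untreated libraries did not overlap for 81.2%, 83.7% and 80.9% of all genes in WT, GILZ KO and GILZ TG, and for all members but Stat5b in WT and GILZ KO.

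Stat2, the partner of Irf9 in the interferon response, had the largest increase. In untreated WT its level was 21.6, 20.6 and 18.6 TPM, and after LPS it was 341, 291 and 296 TPM. GILZ KO had 24.8, 23.6 and 22.7 TPM without and 304, 312 and 302 TPM with LPS. GILZ TG had 17.8, 17.4 and 21.4 TPM without and 293, 290 and 304 TPM with LPS. Every LPS-treated library was thus at 290 TPM or more and every untreated one at 24.8 TPM or less, whatever the genotype. The log2 fold change was 4.56 in WT (95% confidence interval 4.36 to 4.77, 23.7-fold, adjusted p = 2.17e-16 from edgeR), 4.33 in GILZ KO and 4.60 in GILZ TG (24.3-fold). In WT, 2.55% of all genes tested had an equal or larger increase.

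Stat3, which transmits the signals of IL-6 and of the anti-inflammatory IL-10, was the second in order. It was at 35.7, 37.3 and 31.7 TPM in untreated and 156, 126 and 126 TPM in LPS-treated WT. In GILZ KO the values were 37.3, 40.7 and 41.1 TPM before and 124, 155 and 135 TPM after LPS. In GILZ TG they were 41.7, 35.9 and 34.8 TPM before and 126, 133 and 138 TPM after LPS. The lowest treated library lay well above the highest untreated one. The log2 fold change was 2.60 in WT (95% confidence interval 2.42 to 2.78, 6.07-fold, adjusted p = 3.49e-14 from edgeR), 2.43 in GILZ KO and 2.50 in GILZ TG. With TMM scaling, an increase of more than 4-fold was seen for Stat2 and Stat3 in every genotype and for Stat5a in GILZ TG (4.07-fold). It was called for 8.31%, 8.07% and 8.16% of all genes in WT, GILZ KO and GILZ TG. With the library total, Stat3 was under 4-fold in WT, GILZ KO and GILZ TG (log2 fold change 1.92, 1.79 and 1.83). Stat5a in GILZ TG was then under 4-fold as well (1.35), whereas Stat2 stayed above it in every genotype.

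Stat5a and Stat5b, the factors of GM-CSF and related cytokines, differed in their response despite their shared origin. Stat5a was at 12.9, 13.0 and 13.4 TPM in untreated and 28.5, 27.0 and 29.6 TPM in LPS-treated WT. In GILZ KO, 13.99, 13.52 and 14.72 TPM were followed by 30.9, 33.7 and 27.5 TPM, and in GILZ TG 11.9, 13.0 and 13.1 TPM by 33.7, 36.2 and 37.7 TPM. Treated and untreated libraries did not overlap, and the treated GILZ TG libraries were the highest of all, although replicate 1 of GILZ TG (33.72 TPM) was level with the highest GILZ KO library (33.70 TPM). The log2 fold change of Stat5a was 1.59 in WT (95% confidence interval 1.42 to 1.77, adjusted p = 1.37e-11 from edgeR), 1.63 in GILZ KO and 2.03 in GILZ TG. For Stat5b, WT had 17.4, 14.2 and 13.5 TPM without and 16.8, 14.2 and 17.2 TPM with LPS, so that the groups overlapped. They overlapped in GILZ KO too, with 15.01, 14.59 and 17.33 TPM without and 13.76, 17.79 and 12.48 TPM with LPS. In GILZ TG, at 13.3, 13.9 and 13.4 TPM without and 18.8, 19.3 and 18.8 TPM with LPS, they were apart. With TMM scaling Stat5b passed the test as higher after LPS in all genotypes (log2 fold change 0.81, 0.56 and 1.03), but with the library total it passed in GILZ TG alone (0.36, adjusted p = 0.000201 from edgeR), at 0.13 in WT (adjusted p = 0.112) and -0.08 in GILZ KO (adjusted p = 0.312). Relative to the median of all genes, its change was 0.83, 0.58 and 1.05 with either scaling. In untreated WT the TPM of Stat5b carried more spread than its count, at 13.7% coefficient of variation against 2.73% for the TMM-scaled count. The order was reversed in LPS-treated GILZ TG (1.39% against 2.91%). The effective length used for the TPM of Stat5b was between 4040 and 5000 bases among the 18 libraries.

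Stat6, the mediator of IL-4 and IL-13, was lower after LPS. WT had 161, 154 and 145 TPM without and 71.0, 62.1 and 71.0 TPM with LPS. GILZ KO had 169.5, 163.6 and 163.0 TPM without and 70.5, 63.1 and 71.1 TPM with LPS, and GILZ TG 146, 143 and 149 TPM without and 67.5, 70.9 and 64.2 TPM with LPS. All treated libraries were below all untreated ones. The log2 fold change was -0.50 in WT (95% confidence interval -0.60 to -0.39, 1.41-fold lower, adjusted p = 1.24e-07 from edgeR), -0.60 in GILZ KO and -0.44 in GILZ TG. With the library total it was -1.175, -1.236 and -1.116.

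Stat4, known from the response to IL-12, did not pass the test with TMM scaling in any genotype. WT had 6.84, 7.55 and 9.53 TPM without and 4.06, 4.40 and 5.42 TPM with LPS. GILZ KO had 9.59, 9.96 and 8.58 TPM without and 5.18, 5.99 and 4.88 TPM with LPS, and GILZ TG had 5.62, 6.19 and 8.43 TPM without and 3.72, 4.40 and 5.42 TPM with LPS. On the TPM scale the LPS-treated libraries were thus below the untreated ones within each genotype. The TMM-scaled log2 fold change was -0.16 in WT (95% confidence interval -0.55 to 0.23, adjusted p = 0.460 from edgeR), -0.19 in GILZ KO and 0.04 in GILZ TG. With the library total it passed as lower in all 3, at -0.84, -0.83 and -0.64, close to the median of all genes on that scale. The counts behind these values were 111 to 366 per library, the lowest of the 6 genes.

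**Figure D3:**
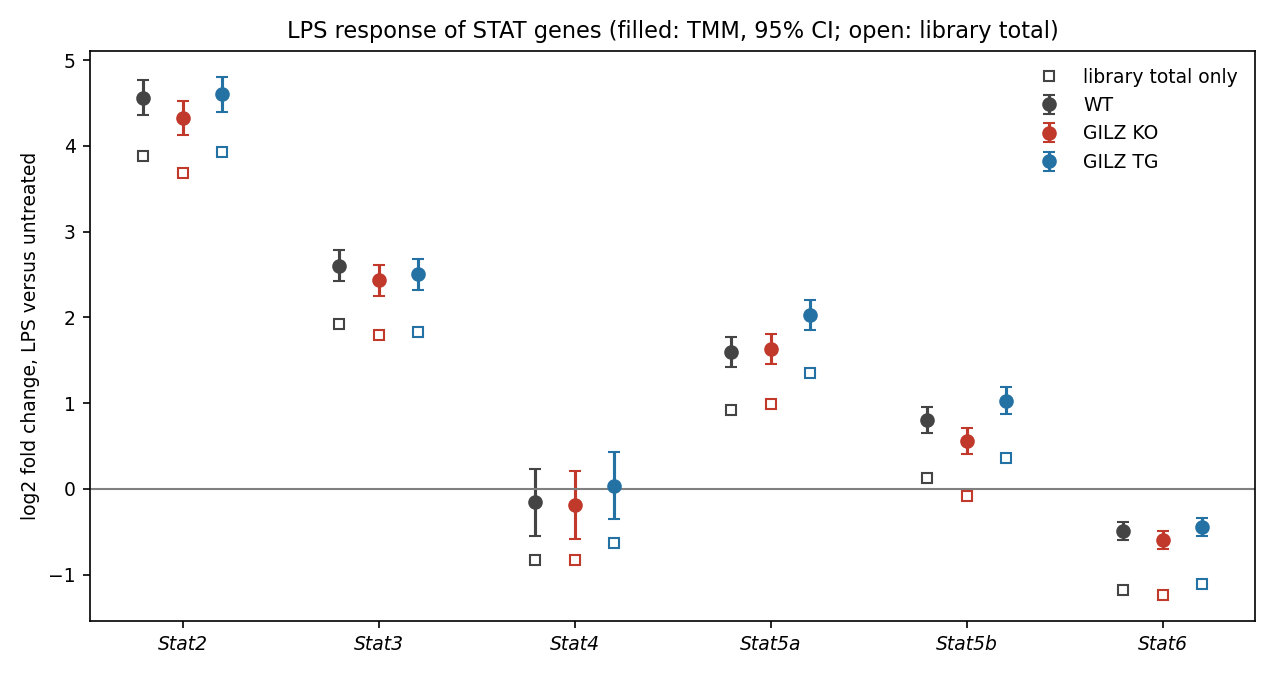
Log2 fold change of LPS against untreated (vertical axis) for each STAT gene in WT (black), GILZ KO (red) and GILZ TG (blue), with TMM scaling (filled circles with 95% confidence interval) and with the library total (open squares). Stat2, Stat3 and Stat5a are above 0 and Stat6 below 0 on both scales, whereas Stat5b in GILZ KO (0.56 and -0.08) and Stat4 in GILZ TG (0.04 and -0.64) change sides.

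The genotypes were then compared within a treatment, to describe STAT expression with the loss or excess of GILZ. WT also differed from GILZ KO and GILZ TG in the level of Lyz2, so a difference from WT cannot be assigned to GILZ alone. No STAT gene passed the adjusted threshold in any of the 6 comparisons with edgeR. Without treatment, GILZ KO against WT gave 0.0951% of all genes, GILZ TG against WT 0.642% and GILZ KO against GILZ TG 4.94%. After LPS these shares were 0.0822%, 0.460% and 2.60%. An unadjusted p-value under 0.05 was found for 2, 0 and 4 of the 6 genes without treatment and for 1, 1 and 2 after LPS, in the same order, and for 9.60%, 14.1% and 24.6% of all genes without treatment and 9.63%, 15.2% and 19.1% after LPS. DESeq2 called 0, 0 and 2 of the 6 genes without treatment (0.626%, 2.47% and 9.65% of all genes) and 0, 1 and 1 after LPS (0.822%, 2.25% and 5.88% of all genes). With limma on log2(TPM + 1) 0 members were called in all 6 comparisons, as were 0.0634%, 0.325% and 2.12% of all genes without treatment and 0.140%, 0.247% and 1.21% after LPS.

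Between GILZ KO and WT, the differences of the 6 genes were between 0.02 and 0.20 on the log2 scale without treatment and between -0.20 and 0.19 after LPS, all with an adjusted p of 0.405 or more. In untreated BMMs, all 3 GILZ KO libraries had more Stat2, Stat3, Stat5a and Stat6 TPM than all 3 WT libraries. In TPM, 17.2% of all genes had no overlap between these groups. The gap was narrow for Stat3 (lowest GILZ KO 37.28 TPM, highest WT 37.27 TPM) and for Stat5a (13.52 and 13.43 TPM). It depended on the scale for Stat5a and Stat6, which overlapped in the TMM-scaled counts, whereas Stat2 and Stat3 were apart there too. For Stat3, GILZ KO had 39.7 ± 2.09 TPM and WT had 34.9 ± 2.89 TPM, a log2 difference of 0.15 (95% confidence interval 0.04 to 0.26, adjusted p = 0.405 from edgeR). After LPS, where 16.3% of all genes had no overlap, no member was apart between these genotypes. With TMM scaling, the 95% confidence interval of Stat6 was -0.06 to 0.15 without treatment and -0.17 to 0.10 after LPS. The intervals of Stat4 were the widest, up to 0.59. These intervals are for single genes and are not adjusted for the number of genes tested.

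Between untreated GILZ TG and WT, the differences were -0.26 to 0.07 with an adjusted p of 0.399 or more, and no member was apart (14.9% of all genes). Without GILZ TG replicates 1 and 2, Stat2 and Stat4 changed sign (0.09 each). Between GILZ KO and GILZ TG without treatment, Stat2 came closest to the threshold. GILZ KO had 22.7 to 24.8 TPM and GILZ TG had 17.4 to 21.4 TPM, which do not overlap, with a log2 difference of 0.30 (95% confidence interval 0.11 to 0.49, adjusted p = 0.068 from edgeR). Stat4 differed by 0.45 (adjusted p = 0.158) and Stat6 by 0.14 (adjusted p = 0.104). DESeq2 called Stat2 (0.30, adjusted p = 0.0249) and Stat6 (0.13, adjusted p = 0.0298). With replicate 3 as the sole GILZ TG library, whose spread is then taken from the other groups, Stat2 differed by 0.10 (adjusted p = 0.548) and Stat4 by 0.11 (adjusted p = 0.801), while without its replicate 3 they differed by 0.40 (adjusted p = 0.00384) and 0.65 (adjusted p = 0.031). Over 15 alternatives in all, the adjusted p of Stat2 was 0.00384 to 0.548 with 2 below 0.05, that of Stat4 0.031 to 0.801 with 1 below, and that of Stat6 0.0298 to 0.504 with 1 below. Stat2, Stat4, Stat5a, Stat5b and Stat6 did not overlap between these genotypes in TPM, as was the case for 28.7% of all genes.

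After LPS the differences that came closest were those of the Stat5 genes in GILZ TG. Stat5a was at 33.7 to 37.7 TPM in GILZ TG and 27.0 to 29.6 TPM in WT, a log2 difference of 0.38 (95% confidence interval 0.19 to 0.56, 1.30-fold, adjusted p = 0.0812 from edgeR). It passed with DESeq2 (0.37, adjusted p = 0.0102), with all 18 libraries in one edgeR fit (adjusted p = 0.0243), without the filter on low counts (adjusted p = 0.0174) and without GILZ TG replicate 3 (0.29, adjusted p = 0.0338). With replicate 3 as the sole LPS-treated GILZ TG library it was 0.53 (adjusted p = 0.073). It passed under these 4 of 15 alternatives, with an adjusted p of up to 0.245 under the others. Stat5b was at 18.8 to 19.3 TPM in GILZ TG and 12.5 to 17.8 TPM in GILZ KO, where it was lower by a log2 difference of -0.34 (95% confidence interval -0.53 to -0.15, adjusted p = 0.0612 from edgeR). This difference passed with DESeq2 (adjusted p = 0.0195), with all 18 libraries (-0.35, adjusted p = 0.011), without the filter (-0.34, adjusted p = 0.0249) and without GILZ TG replicate 3 (adjusted p = 0.0446). With replicate 3 as the sole GILZ TG library it was again -0.34 (adjusted p = 0.366), the highest value of the 15 alternatives, of which the same 4 passed. Stat5a differed by -0.28 between GILZ KO and GILZ TG (adjusted p = 0.10), and by -0.29 with all 18 libraries (adjusted p = 0.0431), the only one of 15 alternatives to pass, with values of up to 0.28 under the others. Both comparisons use the same 3 GILZ TG libraries. In TPM, GILZ TG did not overlap with WT, nor with GILZ KO, in Stat5a and Stat5b and in no other member, against 15.2% and 20.6% of all genes without overlap.

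**Figure D4:**
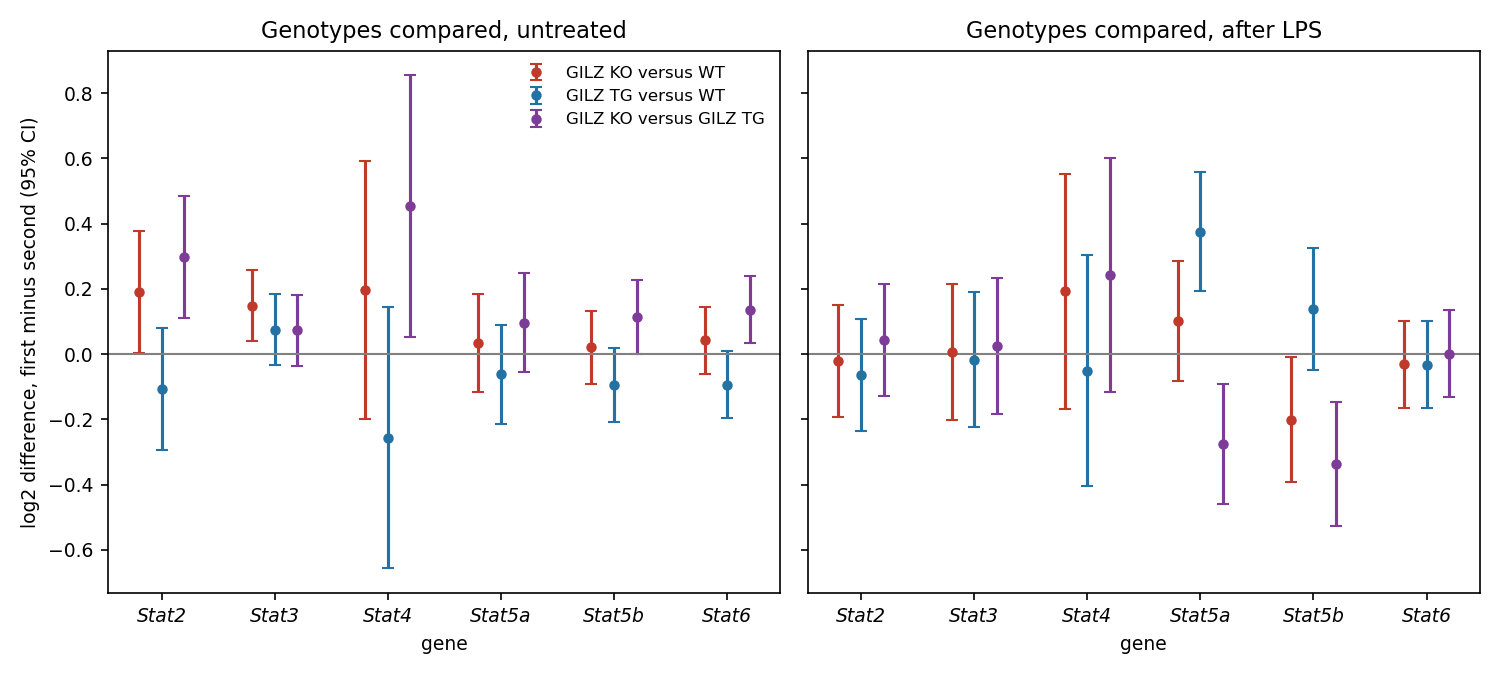
Log2 difference (vertical axis, first-named genotype minus second, with 95% confidence interval) of each STAT gene between genotypes, untreated (left) and after LPS (right). Most points lie within 0.2 of 0, and those farthest from it after LPS are Stat5a in GILZ TG against WT (0.38) and Stat5b in GILZ KO against GILZ TG (-0.34).

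Whether the genotype altered the response to LPS itself was tested as the difference of log2 fold changes in the fit of all 18 libraries. No STAT gene passed with edgeR in any of the 3 comparisons, where 0.0152% (GILZ KO against WT), 0.00759% (GILZ TG against WT) and 0.121% (GILZ KO against GILZ TG) of all genes did. An unadjusted p-value under 0.05 was found for 1, 2 and 4 members and for 6.36%, 3.09% and 9.92% of all genes. DESeq2 called 0, 0 and 1 member and 0.159%, 0.0152% and 0.995% of all genes. The response of Stat5b differed by -0.47 between GILZ KO and GILZ TG, being smaller in GILZ KO (95% confidence interval -0.69 to -0.25, adjusted p = 0.0799 from edgeR), and it passed with DESeq2 (-0.47, adjusted p = 0.00393), with the replicate block (-0.48, adjusted p = 0.0329) and without LPS-treated GILZ KO replicate 2 (-0.57, adjusted p = 0.0166). Of 21 alternatives, 3 passed, and the highest adjusted p was 0.531, without GILZ TG replicates 1 and 2 (-0.52). The response of Stat5a differed by 0.43 between GILZ TG and WT (95% confidence interval 0.19 to 0.67), and with 13169 genes tested the adjusted p was 0.905. For Stat2, the intervals of the difference were -0.49 to 0.02 for GILZ KO against WT and -0.22 to 0.29 for GILZ TG against WT, small against a response of 4.56 in WT. For GILZ KO against GILZ TG the Stat2 response differed by -0.28, with an all-negative interval of -0.53 to -0.02 (adjusted p = 0.444 from edgeR).

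Among the genes around the STATs, the JAK kinases rose with LPS as well, although this held on both scales only for Jak2 and Tyk2. In WT, Jak2, which serves many cytokine receptors, went from 17.0 ± 2.80 to 192 ± 16.6 TPM, 4.13 on the log2 scale (adjusted p = 2.76e-15 from edgeR). Tyk2, the kinase of the interferon alpha/beta receptor, went from 25.0 ± 1.38 to 73.1 ± 4.40 TPM (2.18, adjusted p = 1.03e-14). All 4 kinases were called higher with TMM scaling (median 1.41), against 33.5% of all genes. With the library total 2 were higher and 1 lower, as Jak1 (0.65 with TMM) and Jak3 (0.44 with TMM) changed sign. Of 30 listed receptor chains, 26 were tested, of which 18 were higher, 4 lower and 4 not called with TMM, against 12, 9 and 5 with the library total, on which 15.9% of all genes were higher and 68.3% lower. Only 25 of the chains passed the count filter in the untreated libraries alone, and the rest of the 26 was tested through counts after LPS. The largest increases among receptor chains of at least 5 TPM were Il15ra (5.82, from 4.00 to 146 TPM), a chain of the IL-15 receptor, and Il13ra1 (4.72, from 1.32 to 22.7 TPM), which pairs with Il4ra to signal through Stat6. The largest decreases were Il6st (-1.46, from 39.9 to 11.4 TPM) and Il6ra (-1.46, from 24.8 to 5.81 TPM), the 2 chains of the IL-6 receptor.

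Of 20 listed cytokines that act through STATs, 15 were tested and all were higher after LPS in each genotype with TMM. In WT this also held with the library total. Of all genes, 33.5%, 33.2% and 33.6% were called higher with TMM in WT, GILZ KO and GILZ TG, and 15.9% in WT with the library total. Only 7 of the 20 passed the count filter in the untreated libraries alone. The rest of the 15 were tested through their counts after LPS, so that for them a higher value followed from the filter. Il6, a main activator of Stat3, went from 0.54 ± 0.07 to 1044 ± 153 TPM in WT, 11.5 on the log2 scale (adjusted p = 3.36e-13 from edgeR). Ifnb1, the interferon that acts through Stat2, had no count in the untreated WT libraries and was at 12.2 ± 3.98 TPM after LPS, at least 199-fold higher against a floor of 3 counts over the untreated group. The median log2 fold change of the 15 was 6.32, or 4.28 with the genes without untreated counts set to this floor. The 5 cytokines not tested were Ifng, Il4, Il13, Il2 and Il21, each at 0.51 TPM or less in every library, so that the classical ligand genes of Stat6, Il4 and Il13, were near 0 in these cells.

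The inhibitors of the pathway moved in both directions. In WT, 9 of 14 were higher, 3 lower and 2 not called with TMM (median 0.54), and 6 were higher and 8 lower with the library total (median -0.14, against -0.70 over all genes, of which 15.9% were higher and 68.3% lower), with a change of sign for Pias1, Ptpn6 and Ptpn11. Only 13 of the 14 passed the count filter in the untreated libraries alone, and the rest was tested through counts after LPS. Usp18, which blocks the interferon receptor, rose from 4.63 ± 0.62 to 787 ± 48.8 TPM (log2 fold change 8.04) and Socs1, a JAK inhibitor, from 3.34 ± 0.36 to 222 ± 15.2 TPM (6.69). The adaptor Sh2b3 (-1.25, from 53.1 to 14.8 TPM) and Pias3 (-1.48, from 19.1 to 4.38 TPM), named as an inhibitor of Stat3, fell. Of the 5 partners and coactivators, 4 were higher in WT with TMM and 2 with the library total, against 33.5% and 15.9% of all genes. Both latter genes interact with STATs, namely Nmi (3.14, from 28.1 to 161 TPM) and Irf9 (2.19, from 33.3 to 97.7 TPM), the DNA-binding partner of Stat2.

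Of the textbook targets of Stat2 with Irf9, all 13 rose with LPS in all 3 genotypes, also with the library total in WT. The median log2 fold change was 8.53 in WT, 7.51 in GILZ KO and 8.86 in GILZ TG. Beside these and the following target lists, 33.5%, 33.2% and 33.6% of all genes were called higher in the same order. With the library total it was 15.9% in WT. Rsad2, the antiviral protein viperin, went from 10.5 ± 1.38 to 7501 ± 890 TPM in WT (10.1, adjusted p = 5.05e-13 from edgeR) and Cmpk2, a mitochondrial nucleotide kinase, from 7.10 ± 0.86 to 4252 ± 566 TPM (9.86). All 8 Stat3 targets also rose on both scales in WT (median 2.0), led by Socs3 (5.92, from 23.95 to 947 TPM), the feedback inhibitor of IL-6 signalling, and the kinase gene Pim1 (4.60, from 28.5 to 449 TPM). All 6 Stat5 targets rose with TMM (median 4.22) and 5 with the library total, led by Cish (6.21, from 0.37 to 16.1 TPM) and again Pim1. Of these 6, only 4 passed the count filter in the untreated libraries alone, and the rest were tested through their counts after LPS. The targets of Stat6 were mixed, as 5 of the 10 tested were higher, 1 lower and 4 not called in WT with TMM, and 4, 3 and 3 with the library total (15.9% of all genes higher and 68.3% lower). Of these 10, only 9 passed the count filter in the untreated libraries alone. The rest was tested through counts after LPS, so that a higher value there followed from the filter. Ccl22 (8.02, from 0.38 to 48.3 TPM) and Ccl17 (no untreated count, 26.9 ± 18.4 TPM after LPS, at least 286-fold higher against the same floor), both chemokines, rose, and Pparg, a nuclear receptor of alternative activation, fell (-2.23, from 36.6 to 5.07 TPM). Mrc1 was higher with TMM (0.38) but of opposite sign with the library total. Several genes, such as Usp18, Socs3, Cish and Pim1, stand in 2 of the lists.

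**Figure D5:**
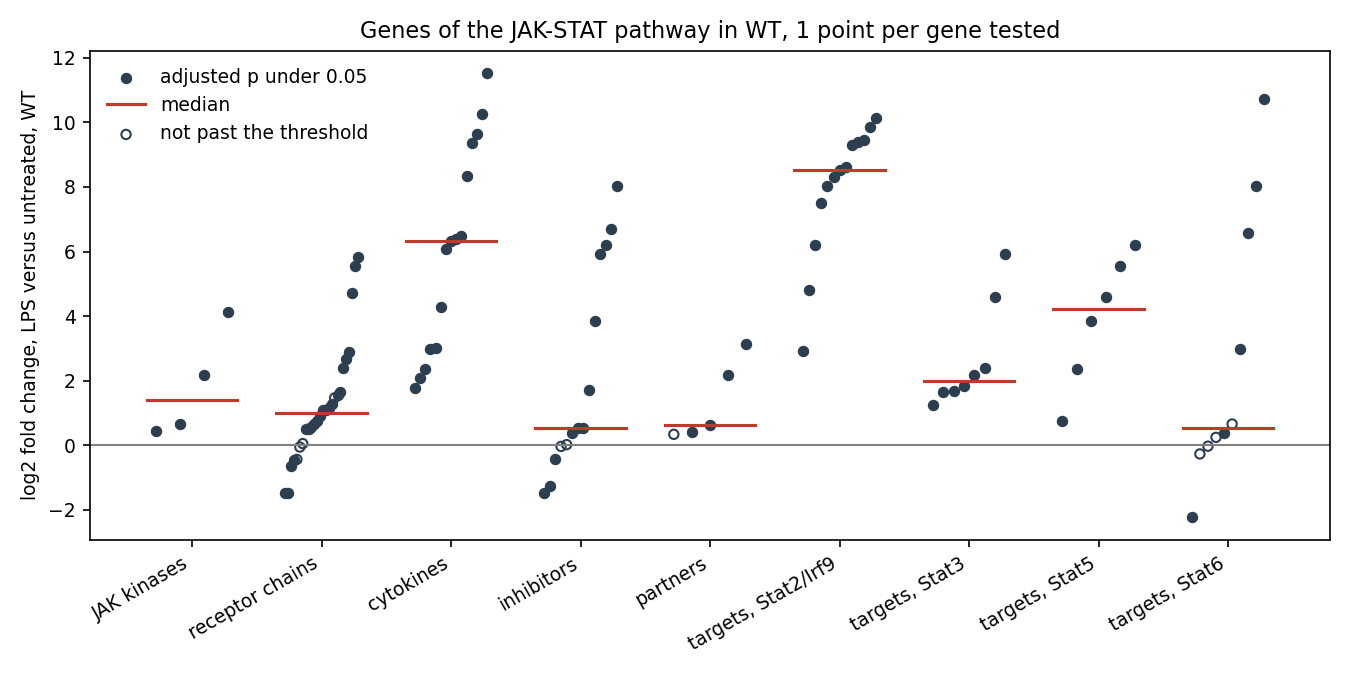
Log2 fold change of LPS against untreated in WT with TMM scaling (vertical axis) for every tested gene of 9 JAK-STAT lists, with filled points for an adjusted p under 0.05 and a red line for the list's median. Tested genes include those that passed the count filter only through their LPS-treated libraries. The Stat2/Irf9 targets and the cytokines lie highest (medians 8.53 and 6.32; 4.28 for the cytokines with genes without untreated counts at their floor), while receptor chains, inhibitors and Stat6 targets lie on both sides of 0, and Jak1 and Jak3 are among the genes that change sign with the library total.

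Between the genotypes, few pathway genes passed. None of the lists had a call between GILZ KO and WT, where 0.0951% of all genes were called without treatment and 0.0822% after LPS. In untreated BMMs, the interferon-induced genes Ifit1 (log2 difference 1.16, 12.1 against 5.28 TPM on average), Ifit2 (1.21) and Ifit3 (0.88) were higher in GILZ KO than in GILZ TG. These were 3 of 13 Stat2/Irf9 targets, where 4.94% of all genes were called in either direction. Il12rb2, a receptor chain of the Stat4 activator IL-12, was higher too (0.88, 19.3 ± 0.72 against 10.3 ± 2.27 TPM). Lower in GILZ KO were the Stat3 target Junb (-0.38), the growth hormone receptor gene Ghr (-1.68, under 1 TPM), the cytokine gene Clcf1 (-1.49) and the Stat6 target Egr2 (-1.41), which was also higher in GILZ TG than in WT (1.07, adjusted p = 0.0377 from edgeR). After LPS, Mx1 (-0.47) and Mx2 (-0.39), which also belong to the Stat2/Irf9 targets, had less mRNA in GILZ KO than in GILZ TG. The difference in LPS response passed for Ifit1 (-1.47, adjusted p = 0.0237) and Mx2 (-1.69, adjusted p = 0.0258). The cytokine genes Csf2 (2.05, 18.2 ± 3.55 against 4.59 ± 2.99 TPM), Il12b (1.43) and Csf3 (1.35) and the phosphatase gene Ptpn1 (0.50) were higher in LPS-treated GILZ KO than in GILZ TG, and Il27 (-0.53) was lower. Il10ra, the ligand-binding chain of the IL-10 receptor, was higher in GILZ TG than in WT (0.42, 123 ± 5.41 against 91.4 ± 2.57 TPM, adjusted p = 0.0171) and lower in GILZ KO by comparison with GILZ TG (-0.32, adjusted p = 0.0277). With replicate 3 as the sole GILZ TG library and the spread taken from the other groups, the calls over all genes between GILZ KO and GILZ TG went from 623 to 34 without treatment and from 316 to 34 after LPS. Of the genes named here, Il12b passed in that fit (1.91, adjusted p = 0.00463). The others kept their sign. Differences were of similar size for Il10ra (0.46 against WT), Mx1 (-0.46), Mx2 (-0.40), Il27 (-0.58), Ifit3 (0.87), Junb (-0.32) and Ptpn1 (0.42). They were smaller for Ifit1 (0.86), Ifit2 (0.93), Il12rb2 (0.56), Clcf1 (-0.95), Ghr (-1.08), Csf2 (1.14), Csf3 (0.73) and Egr2 (-0.93, and 0.59 against WT). The difference in LPS response was then -1.22 for Ifit1 and -1.43 for Mx2.

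For each STAT gene, the 3 genes with the most similar pattern were taken from 9392 genes by the Pearson correlation of log2(TPM + 1) over the 18 libraries, which are described here without a test, as all values of a library share its scaling and the LPS treatment dominates them. Stat2 was most like Parp9, Zup1 and Parp12 (r = 0.999 each), of which Parp9 and Parp12 are interferon-induced genes. Stat3 was most like Arel1, Znfx1 and Rin2 (0.997 each), and Stat5a like Il10ra (0.990), Etv6 (0.990) and Tagap (0.989). By Spearman's rank correlation, Il10ra was at place 153 (rho = 0.858) and Etv6 at place 2 (0.954), after Rnd3 (0.959). Stat6 was most like Xpo7, Pparg and Dagla (0.996 each), where Pparg is one of its textbook targets. Stat4 was most like Ceacam1 (0.975), Atp2a3 (0.974) and the cyclin gene Ccnb2 (0.963), and Stat5b had no close counterpart, with Bach1 (0.796), Cdyl2 (0.787) and Cdyl (0.775). With the group means removed, r was 0.75 to 0.88 for the genes named with Stat2 and 0.32 to 0.59 for those named with Stat5a. Among the members, Stat2 and Stat3 were most alike (r = 0.993, and 0.284 with the group means removed), and Stat2 and Stat6 were opposed (-0.983, and 0.382 with the group means removed).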

How the data were processed

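Expected counts and TPM of 38887 genes were deposited for each of the 18 libraries, in the layout of RSEM. The expected counts are the authors' estimates of reads per gene, neither normalized nor always whole, and the deposited TPM are scaled by effective transcript length (deposited in bases as well, as another value, together with the posterior standard deviation of the count) and by the total. The authors read 75 nt single ends, checked them with FastQC 0.11.2 and mapped them to GRCm38 with the grape-nf pipeline. The version of the counter and its annotation are not given in the sources used here. The authors' deposited DESeq2 1.40.2 tables hold fold changes and p-values of their own comparisons and were not used, and 1 row per file at most that named no gene was left out. Symbols for 37570 identifiers and coordinates came from the GRCm38 reference annotation.

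Expected counts were rounded, filtered by filterByExpr and scaled by TMM. The main test was edgeR's quasi-likelihood F-test (version 4.0.16, run under R 4.3.3), with Benjamini-Hochberg adjustment over all genes tested (13169 for LPS, 12621 and 12164 between genotypes without and with LPS). A comparison between genotypes used the 9 libraries of a treatment, LPS comparisons all 18. An exact permutation test of 3 against 3 cannot give a p under 0.1. Alternatives were DESeq2 1.42.0, its size factors, limma 3.58.1 on log2(TPM + 1) and log2(TPM + 0.1), no filter, other sets of libraries, a replicate block and each replicate left out. The library total and leaving GILZ TG replicates 1 and 2 out were chosen after seeing the data. Tests were checked on simulated data, and figures drawn with matplotlib 3.10.9 in Python 3.11.15. Stat4 had the lowest counts of the 6 genes and the widest intervals.

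The replicate numbers were checked for pairing by the correlation of deviations from the group means. Over 0.1 were 4 of 9 pairs of untreated and LPS libraries (-0.033 to 0.605) and 2 of 18 pairs between genotypes (-0.136 to 0.241). In WT, the pair of untreated and LPS libraries was over 0.1 for replicate 1 alone (0.264), with -0.013 and 0.055 for replicates 2 and 3. Within GILZ TG all 3 untreated and LPS pairs were over 0.1 (0.266, 0.397 and 0.605), and so were the pairs of replicate 1 with 2 (0.347) and 2 with 1 (0.258), so that these values set replicate 3 apart and do not tell replicate 1 from 2. The replicate block changed no call of the LPS comparison in GILZ TG. The members, lists and tests were chosen with earlier results of these data known. Named were the 6 genes, Tsc22d3 and Lyz2, for each list the 2 genes with the largest increase and the 2 with the largest decrease in WT among those called with at least 5 TPM in the higher group, up to 4 called genes per list between genotypes, and the 3 most similar genes. Jak1, Jak3, Pias1, Ptpn6, Ptpn11 and Mrc1 were named after their values were seen.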

Additional observations from a re-analysis of the deposited data

How the results depend on the processing

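The 5 calls for LPS in WT, GILZ KO and GILZ TG were also 5 with DESeq2, without a filter, with only the 6 libraries compared and with the replicate block, and Stat2, Stat3, Stat5a and Stat6 kept their direction there. With the library total and with limma on TPM they were 5, 5 and 6, where Stat4 passed as lower in all 3 and Stat5b as higher in GILZ TG alone. Stat5b in GILZ KO was then -0.082 (library total), -0.097 (TPM + 1) and -0.104 (TPM + 0.1), and Stat4 in GILZ TG -0.637, -0.485 and -0.564. Relative to the median of all genes, Stat5b in GILZ KO was 0.580 with TMM, 0.578 with the library total, 0.420 (TPM + 1) and 0.532 (TPM + 0.1), and Stat4 in GILZ TG was 0.059, 0.054, 0.026 and 0.058.

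Between genotypes, in place of 0, DESeq2 called 2 genes in untreated GILZ KO against GILZ TG and 1 each in GILZ TG against WT after LPS, GILZ KO against GILZ TG after LPS and the LPS response of GILZ KO against GILZ TG. After LPS, all 18 libraries in one fit called 1 for GILZ TG against WT and 2 for GILZ KO against GILZ TG, and no filter called 1 in each of these. With the replicate block, which assumes a pairing that the numbers showed at most in GILZ TG, Stat5b passed for the LPS response of GILZ KO against GILZ TG (-0.476, adjusted p = 0.0329, 1 call), and no other call changed. With each replicate left out the counts were 0 to 2 in untreated GILZ KO against GILZ TG, and 0 to 1 in GILZ TG against WT after LPS, GILZ KO against GILZ TG after LPS and the LPS response of GILZ KO against GILZ TG. The cause of these changes was not tested.

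The changes of sign between genotypes concern differences that passed under no setting. Leaving GILZ TG replicates 1 and 2 out gave 0.089 for Stat2 and 0.088 for Stat4 (untreated GILZ TG against WT), 0.005, 0.088 and 0.262 for Stat2, Stat3 and Stat4 (the same after LPS), -0.030, -0.085, -0.074 and -0.024 for Stat2, Stat3, Stat4 and Stat6 (GILZ KO against GILZ TG after LPS), and -0.072 and 0.037 for the response of Stat2 and Stat3 in GILZ TG against WT. The library total gave 0.006 for Stat2 in GILZ KO and 0.002 for Stat3 in GILZ TG against WT after LPS, and 0.005 for the response of Stat4 in GILZ KO against WT. Stat3 in GILZ KO against WT after LPS was -0.015 with all 18 libraries and -0.005 without a filter, Stat6 in GILZ KO against GILZ TG -0.010 and -0.003, and Stat6 in GILZ KO against WT 0.005 with limma at both pseudocounts.

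With each replicate left out, Stat4 with LPS in GILZ TG was -0.135 to 0.227. In untreated GILZ KO against WT, Stat5a was -0.015 to 0.091 and Stat5b -0.005 to 0.042. After LPS, Stat2 was -0.072 to 0.057 and Stat3 -0.062 to 0.092 in GILZ KO against WT, Stat2 -0.113 to 0.013, Stat3 -0.079 to 0.067 and Stat4 -0.214 to 0.068 in GILZ TG against WT, and Stat3 -0.043 to 0.097 and Stat6 -0.026 to 0.033 in GILZ KO against GILZ TG. For the response these ranges were -0.182 to 0.10 for Stat4 and -0.023 to 0.101 for Stat5a in GILZ KO against WT, -0.013 to 0.172 for Stat2 in GILZ TG against WT, and -0.142 to 0.003 for Stat3 in GILZ KO against GILZ TG.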
